A study of Mus musculus with 12 samples.

Results

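The genes described here are 10 members of JAK-STAT5 signalling and its feedback loop, namely the transcription factors Stat5a, Stat5b and Stat3, the kinase Jak2, the inhibitors Cish, Socs1, Socs2 and Socs3, and the targets Pim1 and Osm. They were chosen by symbol and found by Ensembl identifier among the 56748 identifiers counted in bulk RNA-seq of murine Lin-Sca+Kit+ (LSK) bone marrow (BM) cells. All 10 passed the filter on low counts, which kept 18438 genes for testing. In cells that had spent 2 weeks without tetracycline (TET) and so could express BCR::ABL1 (CML 2wk), mRNA for all 3 STATs and for Jak2 was 1.48 to 1.86-fold lower than in cells kept on TET (CTRL), while Socs3 mRNA was 5.41-fold higher. Cish, Socs2, Pim1 and Osm did not pass the test.

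In cytokine signalling, receptors without catalytic activity bind JAK kinases, which phosphorylate the receptor tail and then STAT proteins, and these dimerise and bind DNA. STAT5 and STAT3 then raise transcription of survival and growth genes as well as CIS/SOCS family inhibitors, which bind the receptor or the kinase and close a negative feedback loop. BCR::ABL1, the fusion kinase of chronic myeloid leukaemia (CML), is known to activate STAT5 without cytokine, and this acts on the protein by phosphorylation, which RNA-seq does not measure.

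All 12 libraries came from B6.SJL recipient mice (CD45.1) aged 8 to 12 weeks, which were irradiated with 2 doses of 4.25 Gy given 3 h apart and transplanted with CD45.2 BM of SCLtTA/BCR-ABL double transgenic (DTG) donors. In DTG cells the Scl (Tal1) stem cell enhancer drives the tetracycline transactivator, so that BCR-ABL1 is transcribed in primitive cells once TET is withdrawn, and both groups therefore carried both transgenes. TET was kept in the drinking water throughout in CTRL (TET on, labelled normal, n = 6), and was withdrawn for the last 2 weeks in CML 2wk (TET off, labelled CML, n = 6). Donor-derived CD45.2+ LSK cells were then flow sorted. Per the methods, the donor cells were a frozen pool from mice of both sexes. The methods give cohorts of 6 for each group, which reads as 1 recipient mouse per library. No label ties a library to a mouse, so p-values measure the spread between libraries. As the methods describe it, all cells stem from 1 donor pool.

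Depth was 22804754 to 41832868 counts per CTRL library and 16150817 to 25070105 per CML 2wk library, and mitochondrial counts were 0.816% to 1.288% and 2.258% to 2.973% of the total. The biological coefficient of variation was 10.9% in CTRL, 32.6% in CML 2wk and 24.6% in CML 2wk without replicate 2. All 9 LSK markers were detected, but 7 were lower in CML 2wk and 1 was higher, and their summed level was 2394 to 2768 CPM (a gene's counts over the scaled total of its library) in CTRL against 1405 to 1818 CPM in CML 2wk. The labels give Male for every CTRL library and Female for every CML 2wk library, so labelled sex and group cannot be told apart. Xist was, however, at 3790 to 4417 CPM in CTRL, and Y-linked Ddx3y reached at most 24 counts there. Uty, Kdm5d and Eif2s3y, also Y-linked, reached at most 0.685 CPM in CTRL. The label of CTRL is thus not the sex of the cells sorted. Few if any male cells were seen in CTRL, although the methods describe a donor pool of both sexes. In CML 2wk, Xist was at 2171 to 3495 CPM, and Ddx3y reached 202 counts (8.59 CPM), its highest level, in replicate 2. Library numbers given by the authors ran in series, 1 with CTRL replicates 1 to 5, 1 with CML 2wk replicates 1 to 5 and 1 with replicate 6 of both groups, so that for 10 libraries series and group cannot be told apart. Replicate 6 is the comparison within a series.

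STAT dimers bind the gamma-activated sequence, whose core TTCNNNGAA is its own reverse complement pattern, so that 1 scan covers both strands. It was searched in RefSeq promoters of GRCm38.p6, from 250 bases before to 50 bases after each annotated start, and 8.30% of 32851 promoters held it. Of the members, 8 had a promoter in the table (Socs2 and Osm had none), and 2 of these 8, Cish and Socs3, held the motif. Cish and Socs3 are shown because they are both feedback inhibitors and gave different results. Csf2rb2, a receptor subunit described further on, is shown as 1 of 5 other pathway genes that held the motif. It was the only one of these called higher in CML 2wk. Irf1 was lower, Il7r and Bcl6 did not pass the test and Prlr was not tested. Capitals mark the motif, and each sequence is read 5′ to 3′ on the strand of its gene. The Cish window lies at chr9:107296654-107296683 on the plus strand and holds motifs from base 1 to 9 and 12 to 20 of the transcript, an arrangement of 2 or more motifs that 0.457% of promoters had. The Socs3 window lies at chr11:117969502-117969531 on the minus strand with the motif at -154 to -146, and the Csf2rb2 window at chr15:78305718-78305747 on the minus strand with the motif at -15 to -7.
Cish: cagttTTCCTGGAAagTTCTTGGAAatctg
Socs3: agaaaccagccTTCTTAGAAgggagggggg
Csf2rb2: agtgtccacaaTTCTGAGAAgcaagcaaag

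Of the 10 members, 6 passed the test at an adjusted p of 0.05 (edgeR, quasi-likelihood F-test, Benjamini-Hochberg across every gene tested), 2 of them higher and 4 lower in CML 2wk. Over all genes 59.5% passed, 30.6% higher and 29.0% lower, so that the share of members called was near that of all genes. The CPM ranges of the groups did not overlap for 5 members, 4 lower (Stat5a, Stat5b, Stat3 and Jak2) and 1 higher (Socs3). Over all genes 37.6% did not overlap, 20.6% lower and 17.0% higher in CML 2wk. The median log2 fold change of the members was 0.02, beside 0.07 for all genes tested.

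**Figure D1:**
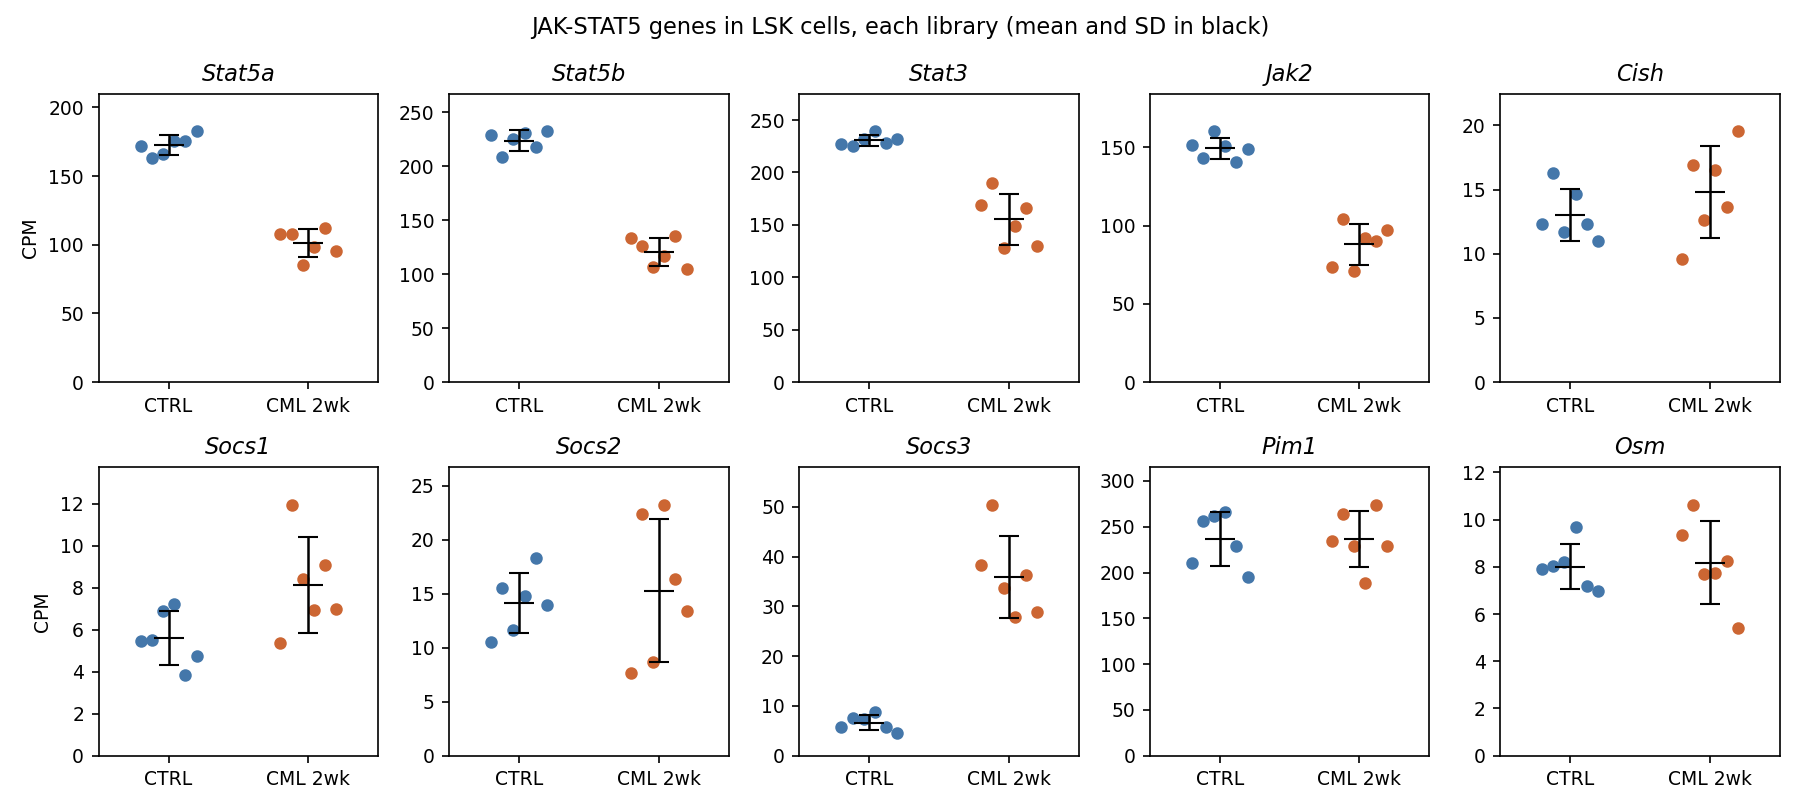
Each panel plots 1 member, with CPM on the y axis (from 0) and a point for each of the 6 CTRL (blue) and 6 CML 2wk (orange) libraries; black bars are the mean and SD. Points of Stat5a, Stat5b, Stat3 and Jak2 lie lower in CML 2wk and those of Socs3 higher, with no overlap, while the groups overlap for Cish, Socs1, Socs2, Pim1 and Osm.

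The signal transducers fell together. Stat5a (ENSMUSG00000004043), which with Stat5b mediates signals from the IL-3, GM-CSF and erythropoietin receptors, was at 163, 174 and 183 CPM (lowest, median and highest) in CTRL and at 85.4, 103 and 112 CPM in CML 2wk. Every CML 2wk library lay below every CTRL library, and replicate 3 was the lowest. The difference was a log2 fold change of -0.77 (SE 0.068, 95% interval -0.91 to -0.62), or 1.70-fold lower, with adjusted p = 3.88e-07 (edgeR, Benjamini-Hochberg). A two-sided exact permutation test on the 6 against 6 libraries gave p = 0.00216, the smallest it can give.

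Stat5b (ENSMUSG00000020919), the paralog of Stat5a, was at 208, 227 and 233 CPM in CTRL and at 105, 121 and 135 CPM in CML 2wk. The groups were again apart, and the lowest CML 2wk library was replicate 6, whose CTRL counterpart of the same number series was the highest CTRL library. Stat5b fell by 0.89 on the log2 scale (SE 0.0716, 95% interval -1.04 to -0.74), 1.86-fold, with adjusted p = 1.63e-07 (edgeR, Benjamini-Hochberg). The log2 ratio of Stat5b to Stat5a was 0.31 to 0.44 in CTRL and 0.14 to 0.33 in CML 2wk, a difference of -0.13 (two-sided exact permutation test, p = 0.00433, 1 of 6 pairs of members compared). These paralogs have 50-base stretches in common, 8.21% of those of Stat5a and 11.0% of those of Stat5b, where reads may be assigned to either.

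Stat3 (ENSMUSG00000004040) is activated through gp130 cytokines such as IL-6 and by G-CSF. Its level was 225, 230 and 239 CPM in CTRL, with a coefficient of variation of 2.20%, and 127, 158 and 190 CPM in CML 2wk, with one of 15.6%. All 6 CML 2wk libraries were below CTRL, replicates 3 and 6 the furthest and replicate 2 the nearest. Stat3 fell by 0.57 on the log2 scale (SE 0.0887, 95% interval -0.76 to -0.38), 1.48-fold, with adjusted p = 6.92e-05 (edgeR, Benjamini-Hochberg). It fell less than either paralog of STAT5: the ratio of Stat5b to Stat3 moved by -0.32 and that of Stat5a to Stat3 by -0.19 (log2; two-sided exact permutation tests, p = 0.00216 and 0.00649). Exons of Stat3 and Stat5a overlap on opposite strands, and since the strand setting of the counting is not given, reads in the overlap cannot be told apart.

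Jak2 (ENSMUSG00000024789), the kinase bound to the receptors for IL-3, erythropoietin and growth hormone, was at 141, 150 and 160 CPM in CTRL and at 70.8, 91.2 and 104 CPM in CML 2wk. No library of one group lay within the range of the other, and CML 2wk replicates 1 and 3 were the lowest. Jak2 fell by 0.76 on the log2 scale (SE 0.0886, 95% interval -0.95 to -0.57), 1.69-fold, with adjusted p = 4.53e-06 (edgeR, Benjamini-Hochberg). With the number series as a term, whose group effect rests on replicate 6, the estimate was -0.62 and Jak2 was not called. Over the other alternatives Jak2 kept its call. Their Benjamini-Hochberg adjusted p ranged from 1.53e-14 (DESeq2) to 9.63e-05 (edgeR quasi-likelihood test with a replicate block).

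Within the replicate 6 series, Stat5a was at 183 CPM in CTRL and 95.1 CPM in CML 2wk, and Stat5b at 233 and 105 CPM. Stat3 stood at 232 and 130 CPM and Jak2 at 149 and 97.0 CPM in the same 2 libraries. All 4 were thus lower in CML 2wk within that series too, with 1 library a group. With the series as a term, the log2 fold changes of Stat5a, Stat5b and Stat3 were -0.94, -1.15 and -0.83. The group effect of that fit rests on the same 2 libraries, so these values restate their comparison. Of the 9 LSK markers 7 were lower, Cd48 was higher (log2 fold change 1.10) and Ly6a did not pass (0.38); the median log2 fold change was -0.73, with Kit at 680 to 799 CPM in CTRL and 322 to 519 CPM in CML 2wk; their part in the result was not tested. In bulk samples, fewer cells of a type and less RNA per cell cannot be told apart.

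**Figure D2:**
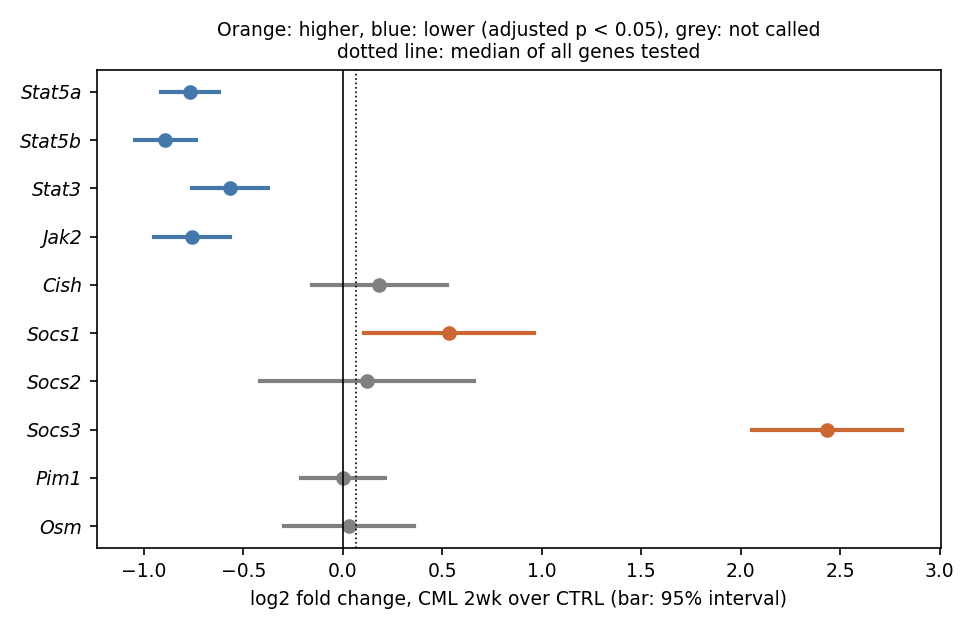
Points give the log2 fold change of each member (x axis, CML 2wk over CTRL), horizontal bars the 95% interval, with members on the y axis; the dotted line is the median of all genes tested, 0.07. The 4 signal transducers lie between -0.89 and -0.57, Socs3 lies at 2.44, and the intervals of Cish, Socs2, Pim1 and Osm include 0.

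The feedback inhibitors did not move as a group. Socs3 rose and Socs1 passed the test narrowly, while Cish and Socs2, the family members most often named as STAT5 targets, did not pass. Socs3 (ENSMUSG00000053113) encodes an inhibitor that binds gp130 and JAK kinases and is a target of STAT3. It was at 4.52, 6.60 and 8.81 CPM in CTRL and at 27.9, 35.0 and 50.5 CPM in CML 2wk, from 120 to 1186 counts per library. The lowest CML 2wk library (replicate 4) was above the highest CTRL library by a wide margin, and replicate 2 was the highest.

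Socs3 was 5.41-fold higher (95% interval 4.16 to 7.03), a log2 fold change of 2.44 (SE 0.177), with adjusted p = 7.67e-08 (edgeR, Benjamini-Hochberg), higher in 6 of 6 libraries. The two-sided exact permutation test gave p = 0.00216, its smallest value. In the replicate 6 series Socs3 was at 4.52 CPM in CTRL and 28.8 CPM in CML 2wk. Mast cell markers moved in the same direction: 7 of 8 were higher, none was lower, and the summed level was 79.2 to 181 CPM in CTRL against 373 to 2404 CPM in CML 2wk, highest in replicate 2. For CML 2wk replicates 2, 4, 5, 1, 3 and 6, the summed mast cell markers were at 2404, 982, 831, 730, 551 and 373 CPM. In the same order, Socs3 was at 50.5, 27.9, 36.4, 38.3, 33.7 and 28.8 CPM. Without CML 2wk replicates 2 and 4 the log2 fold change of Socs3 was 2.35. The part of mast cells in the result was not tested.

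Socs1 (ENSMUSG00000038037), an inhibitor of JAK kinases induced mainly by interferon signalling, was at 3.85, 5.49 and 7.24 CPM in CTRL and at 5.38, 7.72 and 12.0 CPM in CML 2wk. The groups overlapped, with CML 2wk replicates 2, 3 and 5 above all CTRL libraries and replicates 1, 4 and 6 within their range. Its log2 fold change was 0.53 (SE 0.200, 95% interval 0.11 to 0.96), with adjusted p = 0.0323 (edgeR, Benjamini-Hochberg); the two-sided exact permutation test gave p = 0.0476. The call for Socs1 was lost in 13 of 23 alternatives, among them leaving out any 1 of CTRL replicates 1, 2, 5 and 6 or CML 2wk replicates 2, 3 and 5. Without CML 2wk replicate 2 the log2 fold change was 0.38 with adjusted p = 0.0742 by edgeR's quasi-likelihood test, within a range of 0.0133 to 0.492 over all alternatives.

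Cish (ENSMUSG00000032578) encodes CIS, which occupies STAT5 docking sites on receptors. It was at 11.0, 12.3 and 16.3 CPM in CTRL and at 9.56, 15.1 and 19.6 CPM in CML 2wk. CML 2wk libraries lay on both sides of CTRL, with replicates 2, 4 and 6 above and replicate 1 below. The log2 fold change was 0.18 (SE 0.158, 95% interval -0.15 to 0.52), with adjusted p = 0.33 (edgeR, Benjamini-Hochberg), so that a rise of more than 1.44-fold or a fall of more than 1.11-fold lay outside the interval. In the replicate 6 series, however, Cish was at 11.0 CPM in CTRL and 19.6 CPM in CML 2wk, the lowest and the highest of all values of their groups.

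Socs2 (ENSMUSG00000020027), which restrains growth hormone signalling and is a STAT5 target, varied the most among CML 2wk libraries. It was at 10.5, 14.4 and 18.3 CPM in CTRL and at 7.70, 14.9 and 23.3 CPM in CML 2wk, coefficients of variation of 19.8% and 43.3%. Replicates 2 and 4 of CML 2wk lay above all CTRL libraries, and replicates 1 and 3 below them. The log2 fold change was 0.12 (SE 0.251, 95% interval -0.41 to 0.66), with adjusted p = 0.695 (edgeR, Benjamini-Hochberg). The CML 2wk libraries highest in Socs2, replicates 2 and 4, were also those highest in stromal markers, at 799.9 and 324 CPM in sum beside 64.2 to 85.1 CPM in the other 4 and 88.7 to 111 CPM in CTRL; the part of stromal cells in the spread was not tested.

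Socs3 therefore moved apart from Cish, Socs1 and Socs2. The log2 ratio of Socs3 to Cish was -1.27 to -0.66 in CTRL and 0.56 to 1.99 in CML 2wk, a difference of 2.27. For Socs3 to Socs1 the difference was 1.91 and for Socs3 to Socs2 it was 2.41, and none of these ratios overlapped between groups (two-sided exact permutation tests, p = 0.00216 for each). Because Socs3 alone already separated the groups, these tests largely restate its own change.

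Of the remaining targets, Pim1 (ENSMUSG00000024014), a serine/threonine kinase that promotes survival and is a classical STAT5 target, was at 195, 243 and 266 CPM in CTRL and at 189, 232 and 274 CPM in CML 2wk. The ranges of Pim1 covered one another almost entirely. The log2 fold change was 0.00 (SE 0.0989, 95% interval -0.21 to 0.21), with adjusted p = 0.988 (edgeR, Benjamini-Hochberg), and changes beyond 1.16-fold in either direction lay outside the interval.

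Osm (ENSMUSG00000058755) encodes oncostatin M, a gp130 cytokine whose gene STAT5 induces in haematopoietic cells. It was at 6.97, 7.98 and 9.70 CPM in CTRL and at 5.42, 7.99 and 10.6 CPM in CML 2wk. Only CML 2wk replicate 2 was above CTRL and only replicate 6 below it. The log2 fold change was 0.03 (SE 0.152, 95% interval -0.29 to 0.36), with adjusted p = 0.871 (edgeR, Benjamini-Hochberg). Cish, Socs2, Pim1 and Osm passed the test in 0 of 23 alternatives. With the number series as a term, whose group effect rests on replicate 6, their log2 fold changes were 0.83, -0.06, 0.23 and -0.36. Those of Cish, Pim1 and Osm lay outside the 95% intervals given above, so these intervals do not cover that setting.

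**Figure D3:**
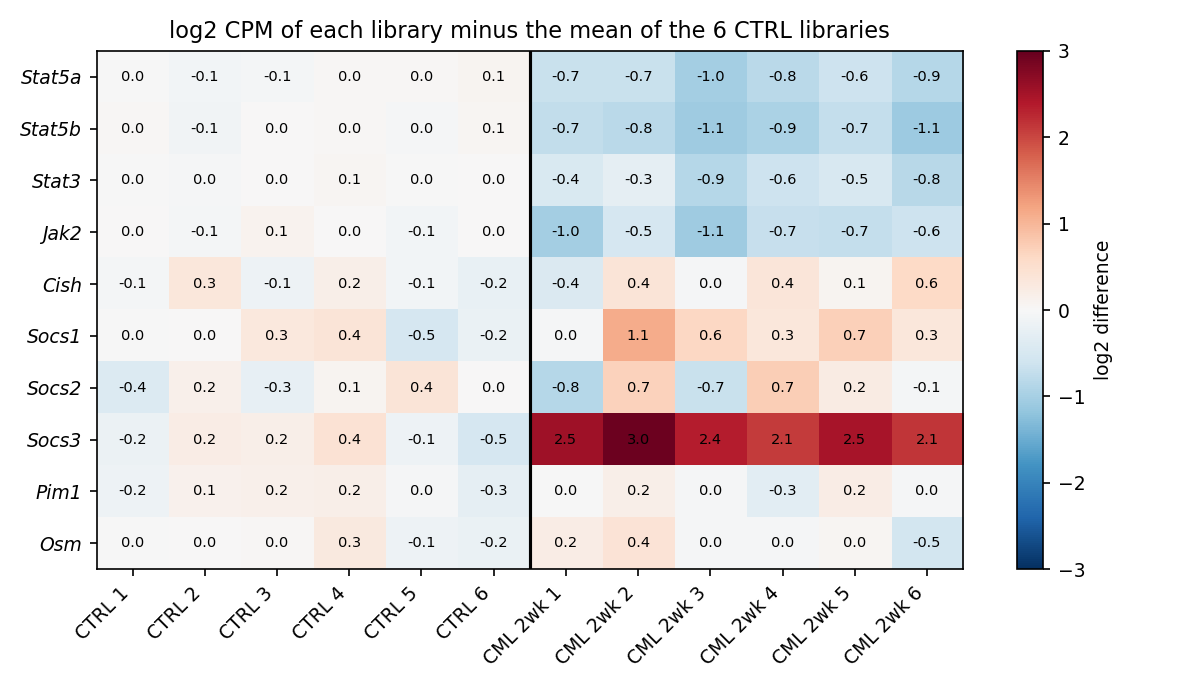
Rows are members and columns the 12 libraries; colour and number give the log2 CPM of a library minus the mean of the 6 CTRL libraries. Stat5a, Stat5b, Stat3 and Jak2 are negative and Socs3 is 2.1 to 3.0 in every CML 2wk library, whereas Cish and Socs2 take both signs among CML 2wk libraries.

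The grid of deviations by library shows how members varied within a group. After each gene's group mean was taken off, Stat5a and Stat5b had a Pearson r of 0.88 over the 12 libraries, and Stat3 had 0.83 with Stat5a and 0.84 with Stat5b. Socs3 had 0.85 with Pim1 and 0.79 with Osm. Jak2 and Socs2 had 0.87 over the 6 CML 2wk libraries and -0.80 over the 6 CTRL libraries. These are descriptions of 45 pairs measured in the same libraries and scaled by the same totals, and CML 2wk replicate 2 lies at an extreme for several members. Among 13441 genes, those closest to Cish were Stx5a, Traf1 and Ifit1bl1 (r of 0.93, 0.88 and 0.87 over 12 group-centred libraries), and those closest to Socs2 were Nhsl1, Plxdc2 and Zfp462 (0.92, 0.91 and 0.90). For Pim1 they were Fbxl15, Slc35d2 and Hexdc (0.87, 0.86 and 0.85), and for Osm they were Acvr2b, Dnal1 and Mmp9 (0.92 for each).

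Levels of different genes were compared per kilobase of exon. In CTRL, Pim1 was the highest at 70.3 ± 8.77 CPM per kb (SD, n = 6), followed by Stat5b at 40.4 ± 1.68 and Jak2 at 29.7 ± 1.37, each apart from its neighbour. Stat3 and Stat5a, both at 24.2 CPM per kb, overlapped. Osm stood at 3.53 ± 0.424 CPM per kb, and Socs3, Cish, Socs1 and Socs2 followed at 2.30, 2.03, 1.93 and 1.48 CPM per kb, each overlapping the next. In CML 2wk, Pim1 remained at 70.3 ± 9.01 CPM per kb, while Stat5b, Jak2, Stat3, Stat5a and Socs3 came to 21.8, 17.5, 16.3, 14.2 and 12.4 CPM per kb, each overlapping the next, so that by this length Socs3 reached the range of Stat5a. Osm, Socs1, Cish and Socs2 lay below at 3.60, 2.80, 2.31 and 1.60 CPM per kb, again overlapping from one to the next. With the length of the principal transcript in place of all exons, Stat3 ranked above both STAT5 genes (51.1 CPM per kb in CTRL, against 44.4 for Stat5a and 43.0 for Stat5b). Socs2 and Cish, at 6.36 and 4.58 CPM per kb in CTRL, then ranked above Osm at 3.53. The order among STATs, and that of Osm and the inhibitors, thus depends on the length used. By principal transcript, Socs3 was the 9th of 10 in CTRL and the 6th in CML 2wk.

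The rest of the pathway was read from 7 lists holding 71 genes, Il2ra being in a pair of them, of which 61 were tested, 16 were higher, 30 were lower and 15 did not pass, with a median log2 fold change of -0.39 beside 0.07 for all genes. Over all genes tested 30.6% were higher and 29.0% lower, the background for the counts of each list. All 6 other JAKs and STATs of the list were lower, with a median of -0.73. The fall extended to Stat2, a STAT of interferon signalling, at 50.4 to 62.3 CPM in CTRL and 21.8 to 26.4 CPM in CML 2wk (log2 fold change -1.22, SE 0.0691). Among interferon targets, 5 of 6 were lower with a median of -1.08, including Irf9, the DNA-binding subunit of the interferon-activated complex (-1.20, SE 0.0932), Ifit1 (-1.32, SE 0.156), Ifit3 (-1.31, SE 0.289) and Gbp2 (-0.96, SE 0.133).

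Of 15 receptors tested 6 were higher and 5 lower, shares near the 30.6% and 29.0% of all genes, with a median of -0.16. Epor, the erythropoietin receptor, was at 4.79 to 6.37 CPM in CTRL and 1.19 to 3.52 CPM in CML 2wk (log2 fold change -1.34, SE 0.215). Erythroid markers were lower for 5 of 6 genes, with sums of 60.4 to 116 CPM in CTRL and 14.5 to 55.4 CPM in CML 2wk. Megakaryocyte markers were lower for 4 of 4 tested genes, with sums of 220 to 255 CPM and 77.8 to 243 CPM; the part of these cells in the result was not tested.

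Csf2rb, the beta chain common to the IL-3, GM-CSF and IL-5 receptors, rose from 79.8 to 104 CPM in CTRL to 152 to 258 CPM in CML 2wk (log2 fold change 1.08, SE 0.132). Csf2rb2, the mouse beta chain specific to IL-3, rose from 13.3 to 22.9 CPM to 32.9 to 159 CPM (1.98, SE 0.315). The pair shares 12.3% of 50-base stretches of Csf2rb and 18.4% of those of Csf2rb2, so that their split is uncertain. Il2ra, the IL-2 receptor alpha chain and a STAT5 target, was at 0.113 to 1.27 CPM in CTRL and 2.02 to 38.8 CPM in CML 2wk (3.78, SE 0.669), and its log2 fold change was 2.87 without CML 2wk replicate 2. Ghr, the growth hormone receptor, had a log2 fold change of 1.24 (SE 0.375) that came to 0.56 without CML 2wk replicate 2. Markers of mast cells were highest in the same library, and those of basophils had sums of 21.0 to 32.6 CPM in CTRL and 70.1 to 176 CPM in CML 2wk, with 2 of 3 higher; their part in these results was not tested.

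**Figure D4:**
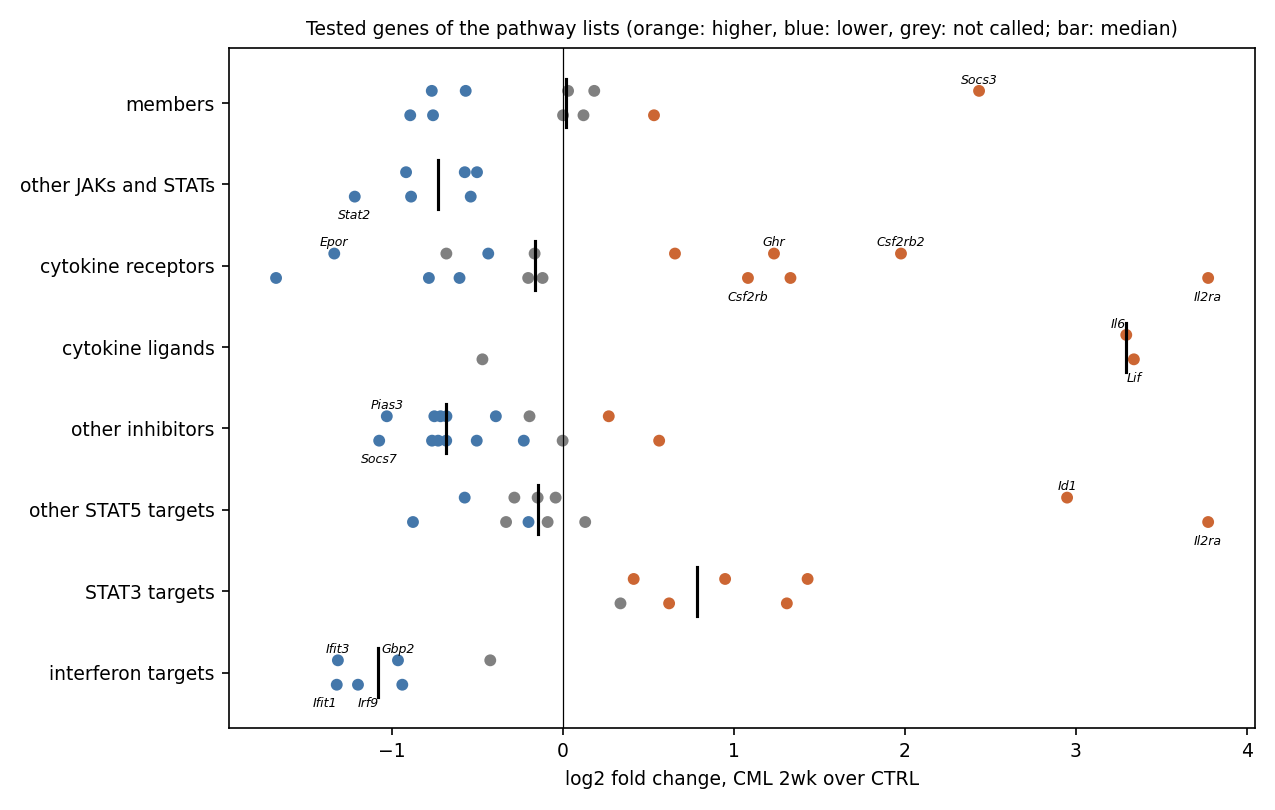
Each point is a tested gene at its log2 fold change (x axis, CML 2wk over CTRL), in rows by list; orange is called higher, blue lower, grey not called, vertical bars are medians of the list, and labels mark Socs3 and the 15 pathway genes named by rule. The 6 other JAKs and STATs lie at or below -0.50, and 5 of 6 STAT3 targets are called higher.

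Of 10 cytokine ligands, 3 were tested. Il6 was at 0.177 to 0.598 CPM in CTRL and 1.16 to 8.13 CPM in CML 2wk (log2 fold change 3.30, SE 0.496), and Lif, like IL-6 a gp130 cytokine, was at 0.293 to 0.973 CPM and 1.28 to 19.0 CPM (3.34, SE 0.569), both low levels. Without CML 2wk replicate 2 the log2 fold change of Lif was 2.52. Il3, Epo, Thpo and Il2 had at most 2 counts in any library, which does not exceed the floor of 3 counts. Of 6 STAT3 targets 5 were higher, namely Cebpd, Il4ra, Hif1a, Vegfa and Bcl3, which are named here after their values were seen, with a median over the list of 0.79, beside 30.6% of all genes higher. The groups did not overlap for Il4ra and Hif1a and overlapped for the other 3. Vegfa went from 1.31 to 0.59 without CML 2wk replicate 2, and the call for Bcl3 was lost without CTRL replicate 1, 5 or 6 (log2 fold change 0.38, 0.38 and 0.35 against 0.42 with all libraries).

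Other STAT5 targets gave 2 higher, 3 lower and 6 that did not pass of 11, with a median of -0.15. The higher ones were Il2ra and Id1, an inhibitor of basic helix-loop-helix factors, which was at 0.792 to 2.08 CPM in CTRL and 6.60 to 16.0 CPM in CML 2wk (log2 fold change 2.95, SE 0.270). Among 15 other regulators of the pathway, listed as inhibitors though not all act only as such (further SOCS genes, PIAS genes, phosphatases and adaptors), 11 were lower and 2 higher, with a median of -0.68. Socs7 fell from 62.5 to 68.1 CPM to 25.7 to 34.8 CPM (-1.07, SE 0.0739) and Pias3, an inhibitor of STAT3, from 21.8 to 25.2 CPM to 8.93 to 15.9 CPM (-1.03, SE 0.127). Socs4, Socs5 and Socs6 were lower too (-0.39, -0.73 and -0.23), so Socs3 moved in the opposite direction to all further SOCS genes of the list.

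Besides the 2 members, the motif was found in promoters of 5 of 56 genes of the lists (8.93%, beside 9.55% of all genes in the table), namely Csf2rb2, Irf1, Il7r, Prlr and Bcl6. For the other cell types that the sort could hold, neutrophil markers were higher for 3 and lower for 4 of 8, with sums of 2184 to 4473 CPM in CTRL and 2357 to 6515 CPM in CML 2wk. Monocyte markers were higher for 2 of 6 (286 to 506 CPM and 457 to 680 CPM), and T and NK cell markers for 2 of 5 (69.5 to 94.7 CPM and 85.6 to 189 CPM), while B cell markers were lower for 2 of 6 (30.1 to 113 CPM and 26.2 to 87.1 CPM). Most of the T and NK sum was Nkg7 (66.9 to 91.7 CPM in CTRL, 84.2 to 186 CPM in CML 2wk). Nkg7 and Klrb1c were the higher ones (log2 fold change 0.55 and 0.62). Cd3e, Cd3g and Gzma did not pass (-1.01, -0.72 and -0.27). Stromal markers were higher for 3 of 6, all collagen genes (88.7 to 111 CPM in CTRL and 64.2 to 799.9 CPM in CML 2wk). These calls rested on CML 2wk replicates 2 and 4: without both, the log2 fold change of Col1a1 went from 4.36 to -3.47 and that of Col3a1 from 5.58 to -3.15, and the sums of the other 4 CML 2wk libraries lay below every CTRL library. No marker was at 0 in every library of a group, and the part of these cells in the members' values was not tested.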

How the data were processed

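Per the labels, total RNA of sorted CD45.2+ Lin-Sca+Kit+ cells was made into libraries with the Kapa RNA HyperPrep kit. The authors deposited raw counts per Ensembl gene, 1 table per library, with no normalization. The submitters' processing notes name FastQC 0.11.9, fastp 0.23.2, STAR 2.7.10a, featureCounts 2.0.1, DESeq2 1.36.0 and the build GRCm39, whereas the study's methods name other trimming and alignment tools for bulk RNA-seq, so the aligner is uncertain. Strand setting, annotation release and handling of multi-mapped reads are not given in the sources used here, and human BCR::ABL1 was not counted.

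Groups and replicate numbers were taken from sample titles. Counts were tested as deposited with edgeR 4.0.16 in R 4.3.3 (quasi-likelihood test, TMM factors, filterByExpr, group as the only term, Benjamini-Hochberg over 18438 genes, threshold 0.05). SE is the absolute log2 fold change over the square root of F. CPM uses TMM-scaled totals, and log2 CPM a prior count of 2. Exact permutation tests (two-sided, scipy 1.17.1) compared mean log2 CPM without adjustment. Levels per kb use GENCODE exon lengths of GRCm38, and 52073 of 56748 identifiers had a symbol. Promoter sequences and coordinates are RefSeq GRCm38.p6, used apart from the counts. Alternatives were DESeq2 1.42.0, limma 3.58.1 (voom with quality weights), other factors, filters and thresholds, a replicate block, the number series as a term and leaving out libraries. The code was tested on simulated data. No 2 libraries agreed within sampling noise (lowest chi-square per degree of freedom 3.777), and 0 entries named no gene. Intervals and floors cover counting error only where they rest on counts.

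The members and the gene lists were chosen with earlier results of these data known, and some genes of the pathway are not reported here. Named were all members, the 15 list genes with the largest absolute log2 fold change among those called whose groups did not overlap, list genes with at most 3 counts in any library, and the 3 genes most like Cish, Socs2, Pim1 and Osm (mean log2 CPM of at least 1). Some further list genes and markers are named to explain a count or a sum.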

Additional observations from a re-analysis of the deposited data

Results flagged for a closer look

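Of 70 groups of 6 values examined (members, the 15 named pathway genes and summed markers, in each group of libraries), 9 had 1 library far from the other 5 by Dixon's ratio at the 95% level, which chance gives in about 1 of 20 groups; none of the 9 was a member. CML 2wk replicate 2 accounted for 6. It was at 38.8 CPM for Il2ra with the next library at 11.6 CPM, at 19.0 CPM for Lif with the next at 4.98 CPM, and at 26.5 CPM for Ghr with the next at 6.33 CPM. Its summed mast cell markers were at 2404 CPM (next 982 CPM), megakaryocyte markers at 243 CPM (next 124 CPM) and stromal markers at 799.9 CPM (next 324 CPM). CML 2wk replicate 6 was at 46.9 CPM for Gbp2, with the next at 32.4 CPM. CTRL replicate 6 was at 0.113 CPM for Il2ra, with the next at 0.84 CPM, and CTRL replicate 4 was at 4473 CPM for summed neutrophil markers, with the next at 2761 CPM.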

How the results depend on the processing

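Stat5a, Stat5b, Stat3 and Socs3 kept direction and call in 23 of 23 alternatives, and Jak2 in 22, the exception being the number series as a term (-0.62). The call for Socs1 was lost with no filter on low counts (log2 fold change 0.46), the series as a term (0.56), voom with quality weights (0.39), without replicate 6 of both groups (0.54) and without CML 2wk replicates 2 and 4 (0.40, an alternative chosen after seeing the data); leaving out 1 library at a time gave 0.38 to 0.63. For these reasons the count of members called higher was 1 in each of those settings, as at an adjusted p under 0.01 and with at least a 2-fold change, and 1 to 2 over single libraries left out. With at least a 2-fold change 0 members were lower, 1755 genes were higher and 1066 lower, and 10 list genes were higher and 8 lower. With the series as a term, whose group effect rests on replicate 6, 2176 genes were higher and 2468 lower, and 4 list genes were higher and 16 lower. The calls of the list genes Il5ra and Socs6 were also lost without several single libraries. The cause of these changes was not tested. Replicate numbers did not pair the libraries (r of same-numbered deviations -0.13 to 0.07). With the replicate block Socs1 came to 0.52 with 1 member called higher, and 4786 genes were higher and 5189 lower; no other member's call changed. Socs1 had as few as 87 counts in a library, and counts of that size limit its precision.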
